A study of Mus musculus with 4 samples.

Results

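Kit, Ly6a, Cd34, Flt3, Slamf1, Cd48, Procr, Tek and Esam encode surface proteins that are used to sort LSK cells and to split stem cells from multipotent progenitors. LSK cells are marrow cells sorted for Sca-1 and c-Kit and against markers of mature lineages. The genes were chosen by name from tables of 47561 gene symbols, and all 9 were found. The study set LSK cells of 2 Metrn cKO mice beside those of 2 Metrn f/f mice, all C57BL/6 and 12 weeks old. Metrn cKO mice carried a floxed Metrn gene together with LysM, and the labels name no other allele. Metrn f/f mice carried the floxed Metrn gene alone and are the controls, although their labels also call them wild type. The series title places Meteorin, the secreted protein that Metrn encodes, in macrophages as a regulator of stem and progenitor cells. LysM commonly names a Cre driven by the lysozyme gene, which acts in myeloid cells such as macrophages and neutrophils, so the model is not built to delete Metrn in LSK cells themselves.

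Hematopoietic stem cells sit at the top of the LSK gate and pass through multipotent stages that can be told apart only by combinations of surface proteins. In adult mice, long-term stem cells lack Flt3 and carry little or no CD34. They carry CD150 (Slamf1) and lack CD48, and EPCR (Procr), Tie2 (Tek) and ESAM (Esam) are enriched on them. CD34 and then Flt3 appear on multipotent progenitors, which also gain CD48, and the progenitors with most Flt3 are primed for the lymphoid lineage. The mRNA of a sorted pool averages over all of these cells. In bulk RNA, fewer cells of a type and less RNA per cell cannot be told apart.

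The libraries did not pair by genotype. Metrn cKO 1 and Metrn f/f 2 stood apart from Metrn cKO 2 and Metrn f/f 1. Values were taken as FPKM, fragments scaled to transcript length and library size, so they are per length and can be set against each other between genes. They summed to 562401 in Metrn cKO 1, 412955 in Metrn cKO 2, 392717 in Metrn f/f 1 and 671802 in Metrn f/f 2, and the read depth is unknown. The 20 most abundant genes took 21.9% and 9.28% of the sum in Metrn cKO and 8.71% and 17.3% in Metrn f/f. Neutrophil genes, 14 of 15 of which passed the filter given below, summed to 59183 and 2127 FPKM in Metrn cKO and to 2703 and 33030 FPKM in Metrn f/f. The targeted gene Metrn had 42.3 and 36.7 FPKM in Metrn cKO and 29.3 and 66.3 FPKM in Metrn f/f, so its level did not separate the genotypes. As deletion is driven in myeloid cells, the level in LSK cells checks the labels only in part. Lyz2, the lysozyme gene of that locus, had 2904 and 245 FPKM in Metrn cKO and 290.4 and 2406 FPKM in Metrn f/f.

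The sequence before the start of 4 of the genes is shown because of how their levels ran across the libraries: Kit, Flt3 and Tek were low in the same libraries, and Cd48 varied least of the 9. RefSeq start sites on GRCm38.p6 gave the 250 bases before the start for 7 of the 9 genes. Kit had 2 start sites, and the one at the lower coordinate was used. For Kit, bases inside the GENCODE gene were left out, which left 179. Capitals mark GGGCGG (the GC box bound by Sp1-type factors) in Kit and TGTGGT (a Runx-type motif) in Cd48.
Kit, chr5:75574737-75574915, plus strand: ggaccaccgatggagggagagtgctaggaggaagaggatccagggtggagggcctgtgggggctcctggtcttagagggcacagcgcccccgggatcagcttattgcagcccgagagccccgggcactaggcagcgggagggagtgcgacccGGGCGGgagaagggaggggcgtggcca
Flt3, chr5:147400490-147400739, minus strand: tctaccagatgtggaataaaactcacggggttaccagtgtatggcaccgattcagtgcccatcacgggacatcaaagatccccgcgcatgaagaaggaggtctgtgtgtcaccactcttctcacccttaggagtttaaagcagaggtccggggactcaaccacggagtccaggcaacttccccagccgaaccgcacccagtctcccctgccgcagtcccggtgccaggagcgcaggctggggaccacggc
Tek, chr4:94739039-94739288, plus strand: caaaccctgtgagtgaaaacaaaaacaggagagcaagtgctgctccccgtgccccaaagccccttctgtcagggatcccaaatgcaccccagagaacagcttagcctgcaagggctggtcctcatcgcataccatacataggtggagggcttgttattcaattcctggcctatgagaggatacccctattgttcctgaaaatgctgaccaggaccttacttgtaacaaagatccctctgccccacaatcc
Cd48, chr1:171681742-171681991, plus strand: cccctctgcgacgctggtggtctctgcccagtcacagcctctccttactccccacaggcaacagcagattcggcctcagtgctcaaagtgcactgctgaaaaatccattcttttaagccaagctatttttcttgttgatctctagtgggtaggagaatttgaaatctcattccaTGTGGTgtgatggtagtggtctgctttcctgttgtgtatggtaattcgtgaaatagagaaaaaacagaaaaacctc
In the 250 bases, 4 motifs were searched on both strands: GATAA (bound by GATA factors), TGTGGT and GGGCGG as above, and CAGGTG (an E-box). No matched bases were shared between motifs. GGGCGG occurred once in Kit, TGTGGT once in Cd48, and GATAA and CAGGTG once each in Slamf1. No match lay in these windows of Flt3, Tek, Cd34 or Procr. Of all 32851 promoter windows of the same length, 32.7% held GGGCGG, 14.0% held TGTGGT, 22.6% held GATAA and 17.2% held CAGGTG. The Kit window was 70.8% G and C, against 59.2% for Flt3, 51.2% for Tek, 46.0% for Cd48 and a median of 52.4% over all windows. The Kit value covers all 250 bases, with those not printed, and holds for the start site used. A match is a description of letters and not of a bound site.

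Among the gate markers, Kit and Ly6a ran in opposite directions between the mice of each genotype in FPKM, and only between the Metrn f/f mice after scaling to the library sum. Kit, the receptor tyrosine kinase for stem cell factor (chromosome 5, positions 75574916 to 75656722), had 25.9 FPKM in Metrn cKO 1 and 116 in Metrn cKO 2, against 108 in Metrn f/f 1 and 24.8 in Metrn f/f 2. Each genotype thus held 1 high and 1 low mouse, and the groups overlapped fully. The ratio between mice was 4.47 within Metrn cKO (Metrn cKO 2 over Metrn cKO 1) and 4.35 within Metrn f/f (Metrn f/f 1 over Metrn f/f 2). The ratio across genotypes was 1.07 between the high mice and 1.04 between the low mice, Metrn cKO over Metrn f/f. Kit lay above 77.6% and 96.5% of the tested genes in the Metrn cKO libraries and above 96.2% and 75.8% in the Metrn f/f libraries.

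Ly6a, which encodes Sca-1, a lipid-anchored protein of the Ly6 family (chromosome 15, positions 74994877 to 74998031), had 48.4 and 38.2 FPKM in Metrn cKO and 37.2 and 83.2 FPKM in Metrn f/f. Metrn f/f 2 was the highest, at 2.24 times Metrn f/f 1, while Metrn cKO 1 was 1.27 times Metrn cKO 2. The smaller of these contrasts depended on scaling. After division by the library sum (TPM, a scale on which every library has the same total), Ly6a had 86.1 and 92.6 TPM in Metrn cKO and 94.6 and 124 TPM in Metrn f/f. Kit kept its split on that scale, with 46.1 and 280.4 TPM in Metrn cKO and 275 and 37.0 TPM in Metrn f/f. Median of ratios scaling divides each library by the median ratio of its genes to their geometric means over the libraries. With it Ly6a kept its FPKM order within each genotype, at 52.1 and 33.8 in Metrn cKO and 34.3 and 93.1 in Metrn f/f. Kit mRNA was 0.535 and 3.03 times Ly6a mRNA in Metrn cKO 1 and 2, and 2.91 and 0.299 times in Metrn f/f 1 and 2. A ratio within a library does not depend on how libraries are scaled.

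**Figure D1:**
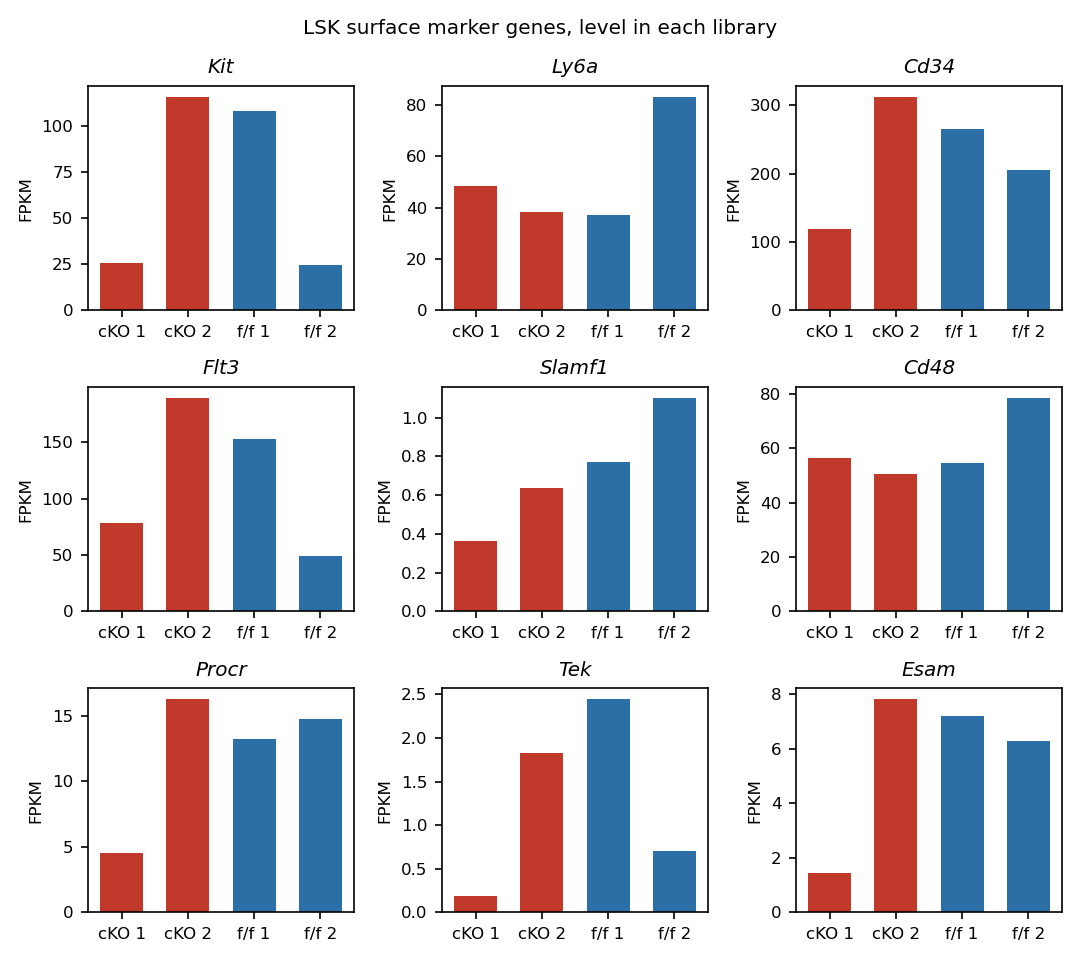
FPKM of each of the 9 surface marker genes in each library, with Metrn cKO mice in red and Metrn f/f mice in blue, 1 bar per mouse and each axis starting at 0. Kit is at 116 FPKM in Metrn cKO 2 and 108 FPKM in Metrn f/f 1, against 25.9 FPKM in Metrn cKO 1 and 24.8 FPKM in Metrn f/f 2, and Flt3 and Tek are low in those same libraries. Procr and Esam are low in Metrn cKO 1 alone.

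Among the progenitor markers, Cd34 was the most abundant of the 9 genes in every library. Cd34, a sialomucin of the progenitor and endothelial surface (chromosome 1, positions 194938819 to 194961279), had 118 and 312 FPKM in Metrn cKO and 265 and 206 FPKM in Metrn f/f. Both Metrn f/f values lay between the Metrn cKO values. Flt3, the receptor kinase for Flt3 ligand (chromosome 5, positions 147330741 to 147400489), had 78.3 and 189 FPKM in Metrn cKO and 153 and 48.7 FPKM in Metrn f/f. The groups interleaved, with Metrn cKO 2 highest and Metrn f/f 2 lowest, a span of 3.89-fold. Cd48, a lipid-anchored ligand of CD244 that is also found on most mature leukocytes (chromosome 1, positions 171682009 to 171705258), had 56.3 and 50.6 FPKM in Metrn cKO and 54.5 and 78.7 FPKM in Metrn f/f. Its highest library was 1.55 times its lowest, the narrowest span of the 9. In TPM its order within each genotype turned round, with 100.1 and 123 TPM in Metrn cKO and 139 and 117 TPM in Metrn f/f. With median of ratios scaling it kept its FPKM order, at 60.5 and 44.8 in Metrn cKO and 50.3 and 88.1 in Metrn f/f. On the other strand, Gm16897 overlaps the span of Cd34 and Gm26597 that of Flt3. An unstranded count could not tell reads in any shared exons apart. Gm16897 and Gm26597 had at most 7.91 and 2.51 FPKM.

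The stem cell markers were the least abundant. Slamf1, the receptor CD150 (chromosome 1, positions 171767127 to 171801184), had 0.363 and 0.637 FPKM in Metrn cKO and 0.772 and 1.10 FPKM in Metrn f/f. Both Metrn cKO values lay below both Metrn f/f values, the only such case among the 9. Of all tested genes, 5.73% had the groups apart in that direction and 6.31% in the other. Slamf1 reached 1 FPKM in a single library, so it fell under the filter and was not tested with the others. The difference of its mean log2(FPKM + 1) was -0.37. In TPM its groups still did not overlap, with 0.645 and 1.54 TPM in Metrn cKO and 1.97 and 1.64 TPM in Metrn f/f. With no filter on low values, limma gave an unadjusted p of 0.271 and an adjusted p of 1 for Slamf1 (95% interval -1.18 to 0.44).

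Tek, the angiopoietin receptor Tie2 (chromosome 4, positions 94739289 to 94874976), had 0.188 and 1.83 FPKM in Metrn cKO and 2.45 and 0.709 FPKM in Metrn f/f. It passed the filter through Metrn cKO 2 and Metrn f/f 1 alone, and its 13.03-fold span was the widest of the 9, at levels where few reads can be expected. Procr, the endothelial protein C receptor (chromosome 2, positions 155751117 to 155755471), had 4.51 and 16.3 FPKM in Metrn cKO and 13.2 and 14.8 FPKM in Metrn f/f. Esam, an adhesion molecule of stem cells and endothelium (chromosome 9, positions 37528078 to 37538319), had 1.44 and 7.82 FPKM in Metrn cKO and 7.18 and 6.27 FPKM in Metrn f/f. In both genes Metrn cKO 1 was low and the other 3 libraries were close. In TPM Metrn f/f 2 also fell behind Metrn f/f 1: Procr had 8.02 and 39.5 TPM in Metrn cKO and 33.7 and 22.0 TPM in Metrn f/f, and Esam had 2.57 and 18.9 TPM in Metrn cKO and 18.3 and 9.33 TPM in Metrn f/f. With median of ratios scaling it did not: Metrn f/f 1 and 2 had 12.2 and 16.5 for Procr and 6.64 and 7.02 for Esam.

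The order of the levels within a library was nearly fixed. Cd34 was first in every library, and Procr and then Esam followed the 5 most abundant genes in every library. Flt3 was second except in Metrn f/f 2, where Ly6a and Cd48 preceded it. Kit came next after Flt3 in Metrn cKO 2 and Metrn f/f 1, and below both Ly6a and Cd48 in Metrn cKO 1 and Metrn f/f 2. Over all libraries the means were 225 FPKM for Cd34, 117 for Flt3, 68.7 for Kit, 60.02 for Cd48, 51.8 for Ly6a, 12.2 for Procr, 5.68 for Esam, 1.295 for Tek and 0.719 for Slamf1. Kit, Cd48 and Ly6a changed places between libraries, so these neighbours did not differ beyond their spread, and nor did Tek and Slamf1.

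The comparison of genotypes asked whether any of these genes differed in LSK cells of Metrn cKO mice. None did so beyond the spread between mice. Of the 9 genes, 8 passed the filter of at least 1 FPKM in at least 2 libraries, and 0 of 8 passed limma's test in either direction (adjusted p of 1.00 for each, smallest unadjusted p = 0.345, for Esam). Over all 13148 tested genes 0% passed in either direction, and 39 had an unadjusted p under 0.05 (in Metrn cKO 8 of them higher, 31 lower). In 0 of the 8 genes did the groups separate, with Metrn cKO either above or below, where 6.31% of all tested genes separated with Metrn cKO above and 5.73% with Metrn cKO below. The median log2 fold change of the 8 genes was -0.33, beside 0.067 over all tested genes.

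The fold changes, Metrn cKO over Metrn f/f on the log2(FPKM + 1) scale, had standard errors of 0.40 to 0.90. Kit averaged 70.9 ± 63.5 FPKM in Metrn cKO and 66.5 ± 58.9 FPKM in Metrn f/f (SD, n = 2 each), and its log2 fold change was 0.079 (SE 0.90). The 95% interval ran from -2.09 to 2.25, beside differences of 2.12 between the Metrn cKO mice (Metrn cKO 2 minus Metrn cKO 1) and 2.08 between the Metrn f/f mice (Metrn f/f 1 minus Metrn f/f 2). Flt3 averaged 134 ± 78.5 FPKM in Metrn cKO and 101 ± 73.8 FPKM in Metrn f/f, with a log2 fold change of 0.49 (SE 0.69). Esam averaged 4.63 ± 4.51 FPKM in Metrn cKO and 6.73 ± 0.647 FPKM in Metrn f/f, with -0.73 (SE 0.72), and Procr averaged 10.4 ± 8.33 FPKM in Metrn cKO and 14.0 ± 1.09 FPKM in Metrn f/f, with -0.62 (SE 0.63). Cd48 had the narrowest interval, from -1.25 to 0.67 around -0.29 (SE 0.40). Ly6a had -0.36 (SE 0.49), Cd34 -0.28 (SE 0.59) and Tek -0.40 (SE 0.67). The value of Tek depended on the pseudocount, at -0.95 (SE 1.38) with 0.1 and -1.14 (SE 1.63) with 0.01.

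Single mice set the direction of 7 of the 8 values. Without Metrn cKO 1 the log2 fold changes of Cd34, Procr, Tek and Esam were positive, at 0.42, 0.21, 0.22 and 0.19. Without Metrn cKO 2 those of Kit and Flt3 were negative, at -0.98 and -0.14. Without Metrn f/f 2 they were -0.96 for Kit and -0.33 for Flt3, and that of Ly6a was 0.21. Without Metrn f/f 1 that of Tek was 0.10. Cd48 alone kept its sign, between -0.55 and -0.028. Between the most alike libraries, Metrn cKO 2 and Metrn f/f 1, the log2 difference lay between -0.29 (Tek) and 0.31 (Flt3) for the 9 genes.

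**Figure D2:**
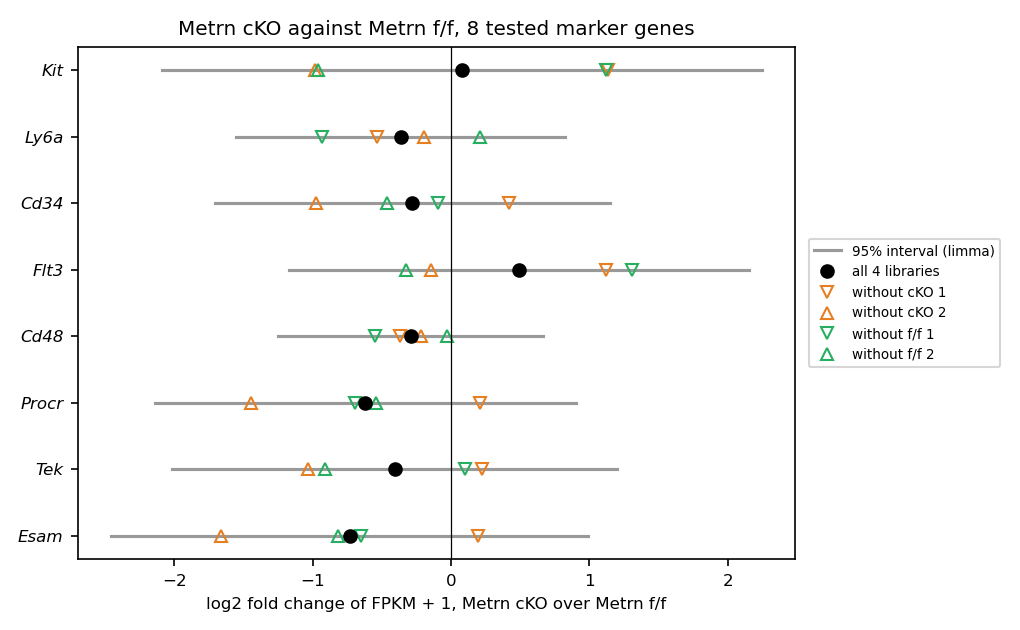
Log2 fold change of FPKM + 1, Metrn cKO over Metrn f/f, for the 8 tested surface marker genes, with limma's 95% interval as a grey bar and the value without each mouse as a triangle. All 8 intervals include 0, and in every gene except Cd48 the triangles lie on both sides of 0.

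The mice were then compared with each other, library by library, as a description without a test. Metrn cKO 2 and Metrn f/f 1 differed by at least 2-fold on the log2(FPKM + 1) scale in 0 of the 8 genes, beside 0.745% of all tested genes that were higher in Metrn cKO 2 and 0.616% that were lower. Between the mice of the Metrn cKO group, 6 of 8 genes (Kit, Cd34, Flt3, Procr, Tek and Esam) were at least 2-fold higher in Metrn cKO 2 and 0 were lower, beside 12.4% and 6.72% of all tested genes. In the Metrn f/f group, Kit, Flt3 and Tek were at least 2-fold higher in Metrn f/f 1, beside 21.9% of all tested genes, and Ly6a was at least 2-fold lower, beside 13.7%. Tek passed the filter through Metrn cKO 2 and Metrn f/f 1 alone, so the filter itself favoured its place in both counts. Without Tek, the genes higher in Metrn f/f 1 were Kit and Flt3. Metrn cKO 1 and Metrn f/f 2, the libraries with most transcripts of mature cells, differed in Procr and Esam, which were at least 2-fold lower in Metrn cKO 1, beside 6.33% of all tested genes. None of the 8 was 2-fold higher there, beside 7.09%.

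**Figure D3:**
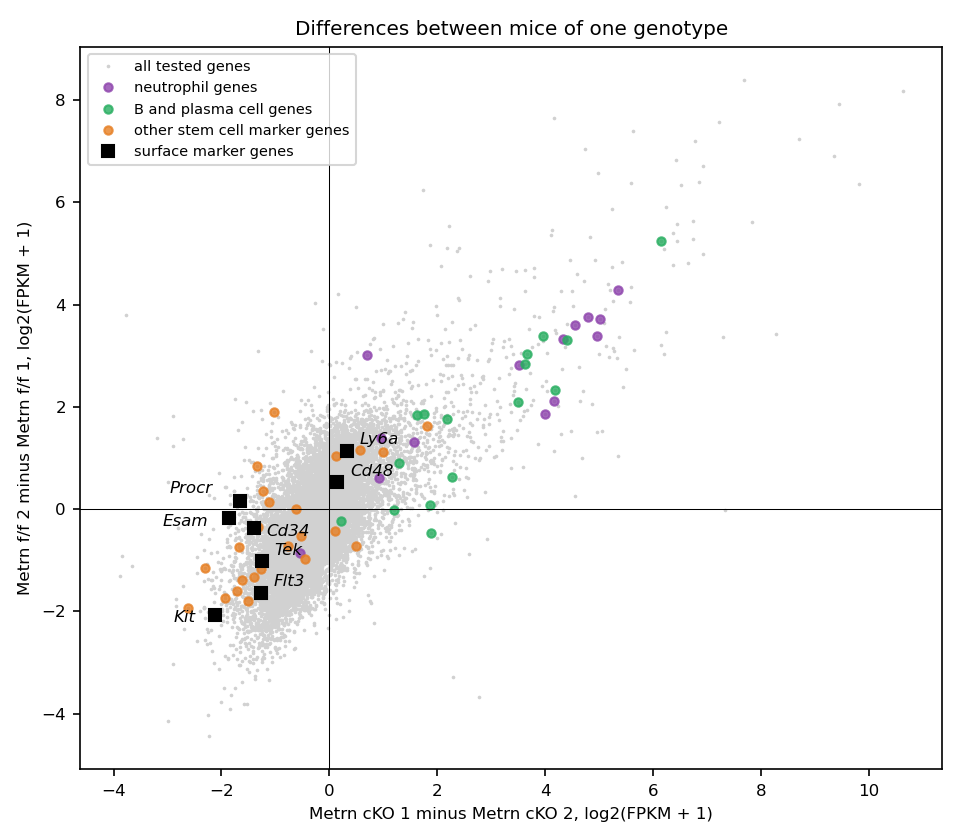
Difference of log2(FPKM + 1) between mice of a genotype, with Metrn cKO 1 minus Metrn cKO 2 on the x axis and Metrn f/f 2 minus Metrn f/f 1 on the y axis. Grey points are the 13148 tested genes, black squares the 8 tested surface marker genes, and coloured points neutrophil, B and plasma cell and other stem cell marker genes. Kit, Flt3 and Tek lie at the lower left, Cd34, Procr and Esam lie left of the centre near 0 on the y axis, and Ly6a and Cd48 lie to the upper right.

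Pairs of markers that a sort sets against each other were compared within libraries. For the SLAM pair, Slamf1 minus Cd48 on the log2(FPKM + 1) scale was -5.39 and -4.98 in Metrn cKO and -4.97 and -5.24 in Metrn f/f. Cd48 mRNA was 155 and 79.4 times Slamf1 mRNA in Metrn cKO, against 70.5 and 71.3 times in Metrn f/f. Metrn cKO 1 was the exception to a near-constant ratio, through its low Slamf1 level. Procr minus Cd34 was -4.44 and -4.18 in Metrn cKO and -4.23 and -3.71 in Metrn f/f, with the values of the groups overlapping. Flt3 minus Slamf1 was 5.86 and 6.86 in Metrn cKO and 6.44 and 4.56 in Metrn f/f. Kit minus Ly6a averaged 0.35 ± 1.73 in Metrn cKO and -0.094 ± 2.28 in Metrn f/f (SD, n = 2 each). For each of the 4 pairs an exact 2-sided permutation test over the 4 libraries gave p = 0.667, and the smallest p that 2 mice against 2 allow is 0.333. The overlap of the pairs with Slamf1 depended on the pseudocount. For Slamf1 minus Cd48 it also depended on the scaling, but only through the pseudocount of 1, which is large beside the Slamf1 levels. Without a pseudocount the ratios of neither pair overlapped. Flt3 mRNA was 216 and 297 times Slamf1 mRNA in Metrn cKO and 198 and 44.1 times in Metrn f/f. Slamf1 minus Cd48 no longer overlapped (p = 0.333, exact permutation test) with pseudocounts of 0.1 and 0.01 and in TPM. The difference of its means, Metrn cKO less Metrn f/f, was then -0.52, -0.63 and -0.25, in place of -0.080. Flt3 minus Slamf1 no longer overlapped (p = 0.333, exact permutation test) with a pseudocount of 0.01, at 1.42 in place of 0.86. With a pseudocount of 0.1 and in TPM its groups still overlapped (p = 0.667, exact permutation test).

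**Figure D4:**
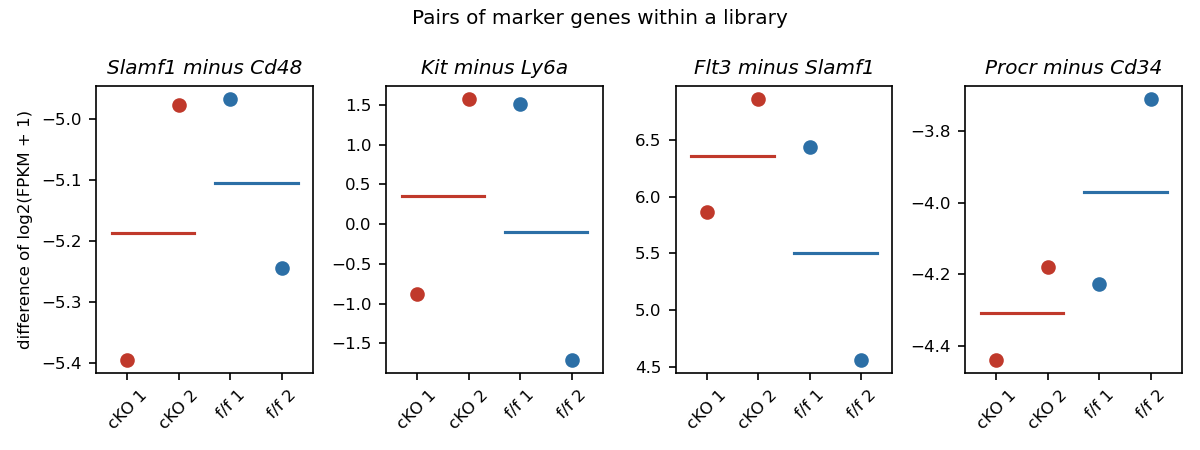
Difference of log2(FPKM + 1) between the genes of 4 pairs within each library, with points for mice, red for Metrn cKO and blue for Metrn f/f, lines for group means, and an axis range of its own in each panel. Kit minus Ly6a is above 0 in Metrn cKO 2 and Metrn f/f 1 and below 0 in the other libraries, and with the pseudocount of 1 the groups overlap in each panel.

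The Ly6 and SLAM families show how far Ly6a, Slamf1 and Cd48 went with their relatives. Of 20 Ly6 family genes 8 passed the filter, 0 passed the test, and 0 had groups that did not overlap. All 8 were higher in Metrn cKO 1 than in Metrn cKO 2 and higher in Metrn f/f 2 than in Metrn f/f 1. So were 26.7% of all tested genes. In TPM 6 of the 8 were higher in both, and Ly6a was not among them. With median of ratios scaling all 8 were. Ly6c2, a marker of monocytes, had 944 and 309 FPKM in Metrn cKO and 363 and 869 FPKM in Metrn f/f. Ly6e had 371 and 274 FPKM in Metrn cKO and 270 and 366 FPKM in Metrn f/f. Ly6g, which carries the neutrophil antigen of the lineage cocktail, had 59.1 and 4.26 FPKM in Metrn cKO and 7.18 and 56.3 FPKM in Metrn f/f. Ly6a lies among these genes on chromosome 15, and reads shared between near-identical family members make their values uncertain.

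Of 12 SLAM family and adaptor genes in the files, 9 passed the filter. Of these 9, 0 passed the test and 0 had groups that did not overlap, and Slamf1, described above, was not among them. On chromosome 1, Cd48 and Slamf1 lie between Slamf7 and Cd84. Cd84 ran with Kit, at 11.8 and 23.9 FPKM in Metrn cKO and 20.3 and 12.1 FPKM in Metrn f/f, and so did Cd244a, which encodes the receptor for CD48, at 4.79 and 8.89 FPKM in Metrn cKO and 10.2 and 4.44 FPKM in Metrn f/f. The spans of Cd244a and Ly9 overlap on opposite strands, so reads in any shared exons cannot be told apart without strand. Slamf6, of lymphocytes, had 14.6 and 0.734 FPKM in Metrn cKO and 1.57 and 9.25 FPKM in Metrn f/f, against the direction of Kit. Ly9 varied little, at 18.8 and 18.8 FPKM in Metrn cKO and 15.8 and 21.9 FPKM in Metrn f/f. The family thus held genes of both directions.

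**Figure D5:**
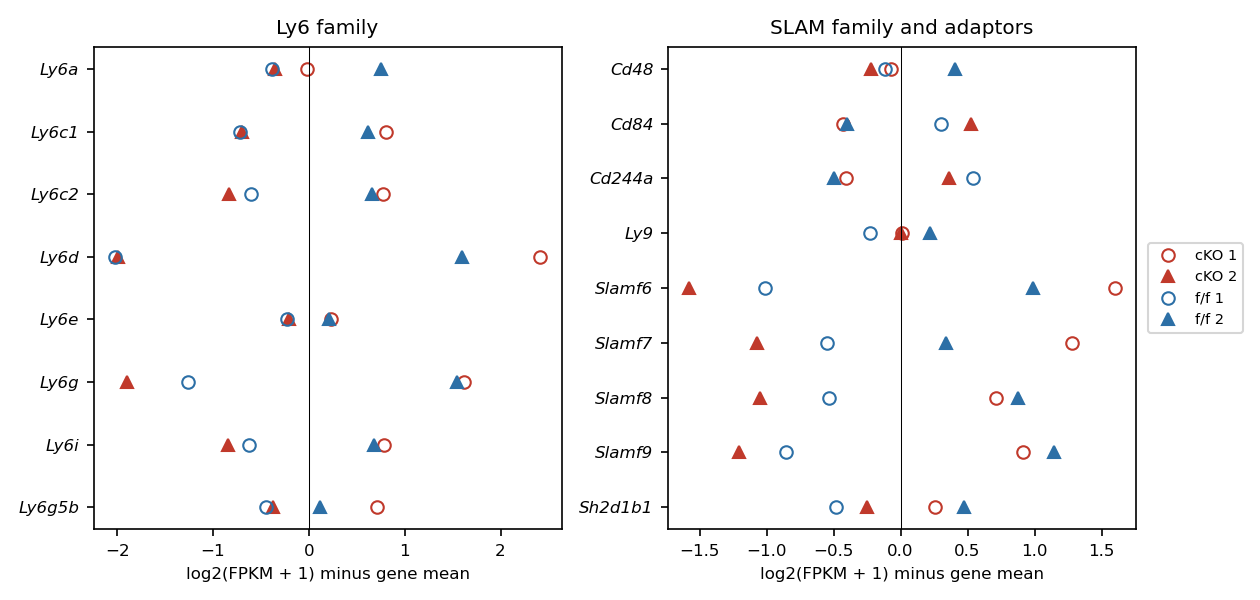
Level of each tested Ly6 and SLAM family gene in each library as log2(FPKM + 1) minus the mean of the gene, with Metrn cKO in red and Metrn f/f in blue, open circles for mouse 1 and filled triangles for mouse 2 of each genotype. All 8 Ly6 genes are higher in Metrn cKO 1 and Metrn f/f 2 than in the other mouse of the genotype, while Cd84 and Cd244a run the other way.

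Ligands and structural relatives of the markers were read from the same fit. The stem cell factor gene Kitl had at most 0.0486 FPKM in any library, and the Tie2 ligand gene Angpt2 at most 0.261. Angpt1, a ligand of Tie2 that stem cells themselves make, had 14.5 and 60.4 FPKM in Metrn cKO and 60.5 and 26.3 FPKM in Metrn f/f, low where Tek was low. Flt3l had 5.93 and 7.97 FPKM in Metrn cKO and 7.36 and 10.6 FPKM in Metrn f/f. Of the 8 ligand and partner genes 4 passed the filter and 0 the test. Tie1, the relative of Tek, had 5.71 and 23.4 FPKM in Metrn cKO and 22.3 and 9.14 FPKM in Metrn f/f. Emcn, a sialomucin like Cd34, had 3.40 and 9.46 FPKM in Metrn cKO and 8.44 and 6.57 FPKM in Metrn f/f. Pdgfrb, a receptor kinase of the same class as Kit and Flt3, had 4.09 and 14.7 FPKM in Metrn cKO and 13.4 and 2.84 FPKM in Metrn f/f, whereas Csf1r, the macrophage colony-stimulating factor receptor, had 24.3 and 15.02 FPKM in Metrn cKO and 13.3 and 28.0 FPKM in Metrn f/f. F11r, of the junctional adhesion family of Esam, had 2.30 and 7.03 FPKM in Metrn cKO and 5.06 and 7.37 FPKM in Metrn f/f, low in Metrn cKO 1 alone as Esam was.

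Other stem cell marker genes were set beside the 9. Of 28 listed genes 24 passed the filter and 0 the test. Of the 24 tested genes the groups separated in 1, with Metrn cKO below, where 5.73% of all tested genes did so. That gene was Tgm2, a transglutaminase, named after its values were seen, with 3.88 and 6.51 FPKM in Metrn cKO and 7.07 FPKM in each Metrn f/f library. Of the 24, 13 were lower in both Metrn cKO 1 and Metrn f/f 2 than in the other mouse of the genotype (54.2%, beside 49.1% of all tested genes). Adgrg1, an adhesion receptor of stem cells, had 128 and 421 FPKM in Metrn cKO and 406 and 133 FPKM in Metrn f/f. Ifitm1 had 84.0 and 214 FPKM in Metrn cKO and 177 and 315 FPKM in Metrn f/f, and Cd27 had 48.3 and 106 FPKM in Metrn cKO and 98.5 and 108 FPKM in Metrn f/f. Adgrg1 followed Kit, while Ifitm1 and Cd27 were low in Metrn cKO 1 alone, like Procr and Esam.

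The LSK label was checked against genes that the gate depletes or that other cell types define. Kit, Ly6a, Cd34, Flt3 and Cd48 each lay above at least 75.8% of the tested genes in every library. The stem cell markers ranked lower. In its highest library, Procr lay above 64.98% of the tested genes, Esam above 44.6%, Tek above 16.8% and Slamf1, itself not tested, above 10.9%. Lineage genes were not absent: of 18 genes of the lineage cocktail 16 passed the filter. The summed level of the list was 1438 and 422 FPKM in Metrn cKO and 487 and 1215 FPKM in Metrn f/f. Most of each sum was Ly6c2, with 944 and 309 FPKM in Metrn cKO and 363 and 869 FPKM in Metrn f/f. Ptprc had 42.6 and 54.9 FPKM in Metrn cKO and 55.4 and 30.4 FPKM in Metrn f/f. Its gene-level values do not tell the B220 form of the cocktail from the CD45 that LSK cells also carry. Cd3e was at 0 in Metrn cKO 2. Cd79a, of the B cell receptor, had 200.1 and 14.8 FPKM in Metrn cKO and 14.9 and 129 FPKM in Metrn f/f. Of the 16 tested lineage genes, 14 were higher in both Metrn cKO 1 and Metrn f/f 2 than in the other mouse of the genotype. That was 87.5%, beside 26.7% of all tested genes, and 1, Ptprc, was lower in both. The summed levels of the lists of mature myeloid, lymphoid and erythroid cells were also higher in those libraries.

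These lists moved against the levels of Kit, Flt3 and Tek, and their part in those levels was not tested. Macrophage and monocyte genes, 15 of 17 past the filter, summed to 312 and 126 FPKM in Metrn cKO and to 123 and 1263 FPKM in Metrn f/f, and C1qb, a complement chain of macrophages, was above 0 in every library. B and plasma cell genes, 16 of 17 past the filter, summed to 4601 and 308 FPKM in Metrn cKO and to 254 and 1344 FPKM in Metrn f/f. Erythroid genes, all 16 found past the filter, summed to 31629 and 3435 FPKM in Metrn cKO and to 4166 and 38150 FPKM in Metrn f/f, most of it globin. Genes of dendritic and antigen-presenting cells other than Flt3, 13 of 15 past the filter, summed to 3406 and 710.0 FPKM in Metrn cKO and to 774 and 3962 FPKM in Metrn f/f. T and NK cell genes, 14 of 16 past the filter, summed to 258 and 173 FPKM in Metrn cKO and to 177 and 338 FPKM in Metrn f/f, with Cd3e, Cd3g and Trac at 0 in Metrn cKO 2. Each of these 5 lists was higher in the library where Kit was lower, within both genotypes. Neutrophil genes were led by S100a8 and S100a9, calcium-binding alarmins, and the summed level of the list is given with the libraries above.

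Endothelial cells share Tek, Esam, Cd34 and Procr with stem cells, so their markers were read too. Of 27 endothelial genes 10 passed the filter, and without Tek and Esam the list summed to 139 and 245 FPKM in Metrn cKO and to 211 and 203 FPKM in Metrn f/f. Cdh5, the cadherin that defines endothelium, had 0.783 and 0 FPKM in Metrn cKO and 0.0357 and 0.246 FPKM in Metrn f/f. Kdr, a receptor of vascular endothelial growth factor, had at most 0.173 FPKM in any library, and Mmrn2 was at 0 in all 4. The sum came from genes that blood cells also express, such as Egfl7, with 60.8 and 90.5 FPKM in Metrn cKO and 67.1 and 102 FPKM in Metrn f/f. Eng, a co-receptor of stem cells and endothelium, had 16.4 and 40.9 FPKM in Metrn cKO and 39.3 and 17.0 FPKM in Metrn f/f, low in the same libraries as Kit.

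Mast cells carry Kit and megakaryocytes carry Slamf1 and Tie receptors in part of their course. Mast cell and basophil genes other than Kit, 7 of 11 past the filter, summed to 231 and 152 FPKM in Metrn cKO and to 136 and 254 FPKM in Metrn f/f, against the direction of Kit. Tpsab1, a mast cell tryptase, was at 0 in every library, and the chymase gene Cma1 was at 0 in both Metrn cKO libraries. Prss34, a basophil protease with the highest mean of these genes, had 82.7 and 39.9 FPKM in Metrn cKO and 29.5 and 98.9 FPKM in Metrn f/f. Megakaryocyte and platelet genes, 11 of 15 past the filter, summed to 38.1 and 91.5 FPKM in Metrn cKO and to 89.8 and 124 FPKM in Metrn f/f, and Gp6 was at 0 in all 4 libraries. Stromal genes, 4 of 14 past the filter, summed to 24.1 and 77.0 FPKM in Metrn cKO and to 77.3 and 40.1 FPKM in Metrn f/f. Most of that was Angpt1 and Pdgfrb, while Lepr, of the stromal niche, was at 0 in both Metrn cKO libraries.

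Progenitor markers outside the 9 showed both directions. Of 23 listed genes all passed the filter and 0 passed the test. The groups separated in 3 of them, with Metrn cKO above in 2, Cd33 and Ccr9, and below in 1, Il3ra, beside the 6.31% and 5.73% of all tested genes given above. These were named after their values were seen. Cd33, a myeloid lectin, had 17.1 and 11.1 FPKM in Metrn cKO and 8.69 and 8.48 FPKM in Metrn f/f. Il3ra, a chain of the interleukin-3 receptor, had 14.4 and 20.7 FPKM in Metrn cKO and 24.4 and 25.1 FPKM in Metrn f/f. Cd52, a lipid-anchored glycoprotein of lymphocytes and the most abundant of the list, had 426 and 91.7 FPKM in Metrn cKO and 71.3 and 428 FPKM in Metrn f/f.

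The genes most like each marker were found by the root mean square difference over the 4 libraries between log2(FPKM + 1) values centred on the mean of each gene, among 6105 genes with a mean of at least 10 FPKM. With 4 libraries many genes come close, so this is a description. Gabbr1, a GABA receptor subunit gene, was nearest to Kit at 0.014, with 3.73 and 19.7 FPKM in Metrn cKO and 18.6 and 3.52 FPKM in Metrn f/f, followed by LOC115487892 at 0.060; the median gene lay at 1.04. The nearest to Ly6a were the phospholipase gene Pla2g12a at 0.017 and Plac8 at 0.025, and Plac8 had 858 and 705 FPKM in Metrn cKO and 693 and 1501 FPKM in Metrn f/f. Flt3 was nearest to Lpin2, a phosphatidate phosphatase gene, at 0.024 and to Mnt, a Max-binding repressor gene, at 0.031. Cd34 was nearest to H2-Q5 at 0.036 and Pglyrp2 at 0.045, and Cd48 to Cnpy3 at 0.011 and Rnh1 at 0.024. Procr was nearest to LOC115489083 at 0.073 and to Rab38, a small GTPase gene, at 0.092. Tek was nearest to Dapp1 and Plppr3, both at 0.14, and Esam to Slc16a11 and H1f10, both at 0.13. Slamf1 was nearest to Farsb at 0.0043 and Bod1 at 0.020, on a scale that flattens a gene of such low level.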

How the data were processed

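LSK cells were sorted by flow cytometry from bone marrow of 2 Metrn cKO and 2 Metrn f/f mice, and total RNA was extracted with TRIZOL and treated with DNase I for standard Illumina libraries, per the labels' protocols. Build mm10 and, with no role stated, the aligner HISAT2 2.1 and the counter featureCounts 1.6.4 appear in the submitters' processing notes, beside DESeq2 2.11.40.6, cutadapt 1.16.5 and bcl2fastq 2.19. For annotation and strand, the setting was not given in the sources used. The authors deposited a value per gene and library without a named unit, and the values were taken as FPKM because they have decimals, are never negative and sum to different totals. As FPKM divide by the library size, abundant transcripts of a few genes lower the values of the others. No read counts, and so no counting error, could be had.

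The 13148 genes that reached 1 FPKM in 2 or more libraries were tested by limma 3.58.1 in R 4.3.3 with an intensity trend on log2(FPKM + 1), without rescaling, as a 2-sided test. P-values were adjusted by Benjamini-Hochberg across these genes, and 0.05 was the threshold. This is the test set for normalized values, and no count test was run. Fold changes on this scale understate the change of low genes. The fit was checked on simulated data with known changes and a smaller spread between mice than is typical of these data. That check does not show which changes could be detected here. Coordinates come from GENCODE M21 (GRCm38, the assembly of mm10), which matched 256 of the 260 listed genes including Metrn and Lyz2. Promoter sequences come from RefSeq on GRCm38.p6.

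Each library comes from another mouse. The p-values, standard errors and intervals of limma rest on the spread between these mice, drawn towards that of other genes of like level. The marker genes and the lists were chosen with earlier results of these data known. Named in the text are the 9 markers, Metrn, Lyz2, up to 3 genes of highest mean per list, the 2 most alike genes per marker by the measure given in the text (leaving out predicted, RIKEN, small RNA, pseudogene, immunoglobulin and mitochondrial names, with mitochondrial transfer RNA genes among the last), and genes that a sentence singles out for their role as a defining marker, ligand or relative, which were chosen after their values were seen. Some genes that this rule names are not reported here. Alternatives were other pseudocounts (0.1 and 0.01), filters, scalings, no trend, the replicate number as a block and leaving out each mouse. The correlation of the deviations of same-numbered libraries across genes was -0.71, so the numbers were not taken to pair the mice.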

Additional observations from a re-analysis of the deposited data

How the results depend on the processing

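In none of the 14 refits did any of the 8 tested markers pass (adjusted p between 0.595 and 1.00). Over all genes, 0 passed in each direction under other pseudocounts, filters, scalings and without an intensity trend. With the replicate block 3 genes passed as higher and 1 as lower; with numbers crossed between genotypes, an alternative chosen after seeing the data, 37 and 65 did. Leaving out each mouse gave 0 to 32 genes higher (32 without Metrn cKO 2) and 0 to 5 lower (5 without Metrn cKO 1). In the block fits and without either Metrn cKO mouse the spread was taken wholly from other genes of like level, and a lone mouse was assumed to vary like the others. The shared numbers gave no pairing, since libraries of the same number differed in opposite directions.

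Leaving out each mouse, the log2 fold change ranged from -0.98 to 1.14 for Kit, from -0.93 to 0.21 for Ly6a, from -0.97 to 0.42 for Cd34, from -0.33 to 1.31 for Flt3, from -1.44 to 0.21 for Procr, from -1.03 to 0.22 for Tek and from -1.66 to 0.19 for Esam. Leaving out each mouse, the pair differences, Metrn cKO minus Metrn f/f, ranged from -0.29 to 0.13 (Slamf1 minus Cd48; -0.080 with all mice), from -1.17 to 2.05 (Kit minus Ly6a; 0.44), from -0.079 to 1.80 (Flt3 minus Slamf1; 0.86) and from -0.60 to -0.082 (Procr minus Cd34; -0.34). Metrn cKO 2 minus Metrn f/f 1 alone, also chosen after seeing the data, gave 0.040 for Ly6a, 0.23 for Cd34, 0.28 for Procr, 0.11 for Esam and 0.047 for Procr minus Cd34, each with its sign turned. With pseudocounts of 0.1 and 0.01 the low genes moved: Slamf1 to -0.81 and -0.93, Tek to -0.95 and -1.14, Slamf1 minus Cd48 to -0.52 and -0.63 (-0.25 in TPM), and Flt3 minus Slamf1 to 1.31 and 1.42 (1.04 in TPM). The causes were not tested.

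Scaling to the library sum moved the median of all tested genes between mice of a genotype: Metrn cKO 1 minus Metrn cKO 2 had a median of -0.68 in place of -0.24, and Metrn f/f 2 minus Metrn f/f 1 had -0.95 in place of -0.23. With median of ratios scaling these medians were -0.00026 and 0.0062. Unknown depth limits Slamf1 and Tek most.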
